A study of Mus musculus with 10 samples.

Results

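Vitamin B12 uptake in the ileum was followed through 7 genes, out of 13666 genes measured in the terminal ileum of 10 male C57BL/6JJmsSlc mice on 1 Affymetrix 3' expression array per mouse. Of these mice, 5 had been exposed to subchronic and mild social defeat stress, in which a mouse of this strain met an aggressive ICR resident for 5 min on day 1 and for 0.5 min less each day, down to 0.5 min on day 10. The other 5 were unstressed controls, and both groups were 7 weeks old, lived in single cages and ate the purified diet AIN-93G, with food withdrawn 3 h before dissection. Each array held the RNA of a separate mouse. The p-values measure the spread between these mice.

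The 7 genes were chosen by name as the receptors, carrier, exporters and chaperone of the vitamin B12 route, with earlier results of these data known. Cubn was the reason for the choice: with control mouse 1 left out it was among the genes called higher in stressed mice, so its difference is given as a description with no test. A gene was measured by its probe set (a group of probes on the array for 1 transcript) with the highest mean over the 10 arrays. All 7 genes had a probe set, 16 probe sets in total, and all 7 passed the filter on low values.

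Vitamin B12 (cobalamin) cannot be made by mammals and is absorbed in the last part of the small intestine. There the complex of the vitamin with gastric intrinsic factor is taken up by cubam, a receptor built from cubilin (Cubn) and amnionless (Amn) on the brush border of enterocytes. The vitamin is freed in the lysosome, leaves it through the membrane proteins encoded by Lmbrd1 and Abcd4, and is handed to the trafficking chaperone encoded by Mmachc. It passes into the blood bound to transcobalamin (Tcn2), and other cells take up that complex through the receptor Cd320.

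RefSeq places the genes on assembly GRCm38.p6, and all 7 matched by Entrez identifier and symbol. Cubn lies at chr2:13276338-13491876 and Amn at chr12:111271096-111276426. Tcn2 lies at chr11:3917077-3932078, Cd320 at chr17:33843091-33849774, Lmbrd1 at chr1:24676992-24766301, Abcd4 at chr12:84601869-84617485 and Mmachc at chr4:116702434-116708385. The 250 bases before the start of the 2 receptor subunit genes are shown from RefSeq, since both subunits are needed at the cell surface and their transcripts are compared below. The Cubn stretch is chr2:13491877-13492126 on the minus strand and the Amn stretch is chr12:111270846-111271095 on the plus strand, both written 5′ to 3′, with capitals at the 1 motif match found.
Cubn: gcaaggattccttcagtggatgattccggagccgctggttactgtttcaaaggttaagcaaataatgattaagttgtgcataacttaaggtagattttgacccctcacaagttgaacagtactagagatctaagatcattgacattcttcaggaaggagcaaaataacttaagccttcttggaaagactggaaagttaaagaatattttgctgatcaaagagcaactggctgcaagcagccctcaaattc
Amn: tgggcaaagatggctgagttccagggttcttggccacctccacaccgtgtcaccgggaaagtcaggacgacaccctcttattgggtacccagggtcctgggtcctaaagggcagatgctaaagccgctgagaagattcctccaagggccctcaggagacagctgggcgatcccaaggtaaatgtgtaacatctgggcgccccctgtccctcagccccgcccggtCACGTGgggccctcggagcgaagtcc
Motifs of 5 kinds were searched on both strands. They were the core of Cdx homeodomain sites, written TTTAT, the HNF1 half-site, written GTTAAT, the HNF4 core, written CAAAGTCCA, the core bound by GATA factors, written AGATAA, and the palindromic E-box, written CACGTG. The Amn stretch held CACGTG once, starting 26 bases before the transcription start, where it overlapped no other motif searched, and 6.02% of 32851 RefSeq promoter stretches of this length held it. The other 4 motifs had no match in the Amn stretch, and none of the 5 had a match in the Cubn stretch. Of all stretches, 37.3% held the Cdx motif, 9.99% the GATA motif, 6.43% the HNF1 motif and 0.384% the HNF4 motif. The GC content was 39.6% in the Cubn stretch and 61.2% in the Amn stretch.

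The array of control mouse 1 stood apart from the others, and each comparison is therefore given with 10 arrays and with the 9 arrays that remain without it. Across genes it correlated with them at 0.918 to 0.947, while the other 9 arrays correlated with one another at 0.975 to 0.995. Fabp6, the ileal bile acid binding protein, was at 13.95 to 14.10 on the log2 scale in stressed mice, against 13.88 to 13.93 in control mice 2 to 5 and 7.88 in control mouse 1. Car1, a carbonic anhydrase of the large intestine, was at 14.17 in control mouse 1 and at most 7.06 in the other controls. Stressed mouse 4 was the highest of its group for Car1, at 13.32, and for the large intestine water channel Aqp8, at 7.26, against 7.50 in control mouse 1 and at most 4.49 in the other controls. Both come from a list of 11 genes drawn up as large intestine markers, of which 10 had a probe set and 5 passed the filter. The others that passed, Ang4, Mptx1 and Tff3, were lower in control mouse 1 (11.93, 9.12 and 13.30) than in any other mouse. In the ileum of control mice 2 to 5 these 3 were at 13.60 to 13.88, 11.52 to 11.84 and 13.70 to 13.84. They are therefore not particular to the large intestine. Below the filter, Hoxd10 and Slc37a2 were higher in control mouse 1 (7.30 and 5.70) than in control mice 2 to 5. They were not high in control mouse 1 alone. Hoxd10 reached 4.46 in stressed mice, against at most 2.85 in control mice 2 to 5. Slc37a2 reached 6.59 in stressed mice, above control mouse 1 and control mice 2 to 5. Hoxb13, Hoxd13 and Hoxd12 were within the range of those controls. The brush border protein Vil1 was at 12.49 or more in every stressed mouse, at 12.41 or more in control mice 2 to 5 and at 10.92 in control mouse 1. In all arrays the values are the log2 values that the authors made with RMA, which forces the arrays to a common distribution.

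Cubn was higher in the ileum of every stressed mouse than in any control mouse. Its log2 values were 11.05, 11.24, 11.01, 11.27 and 11.11 in stressed mice 1 to 5, against 7.18, 10.15, 10.49, 10.44 and 10.68 in control mice 1 to 5. The groups did not overlap, the 5 stressed mice lay within a narrow band, and control mouse 1 was far below all others. The mean was 11.14 ± 0.12 (SD, n = 5) in stressed mice and 10.44 ± 0.22 (SD, n = 4) in control mice 2 to 5. This is a difference of 0.70 ± 0.11 (SE, limma) on the log2 scale, or 1.62-fold. With all 10 arrays the control mean was 9.79 ± 1.47 (SD, n = 5), and the difference was 1.35 ± 0.56 (SE, limma), or 2.55-fold. In pieces of whole tissue, fewer cells of a type and less RNA per cell cannot be told apart.

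**Figure D1:**
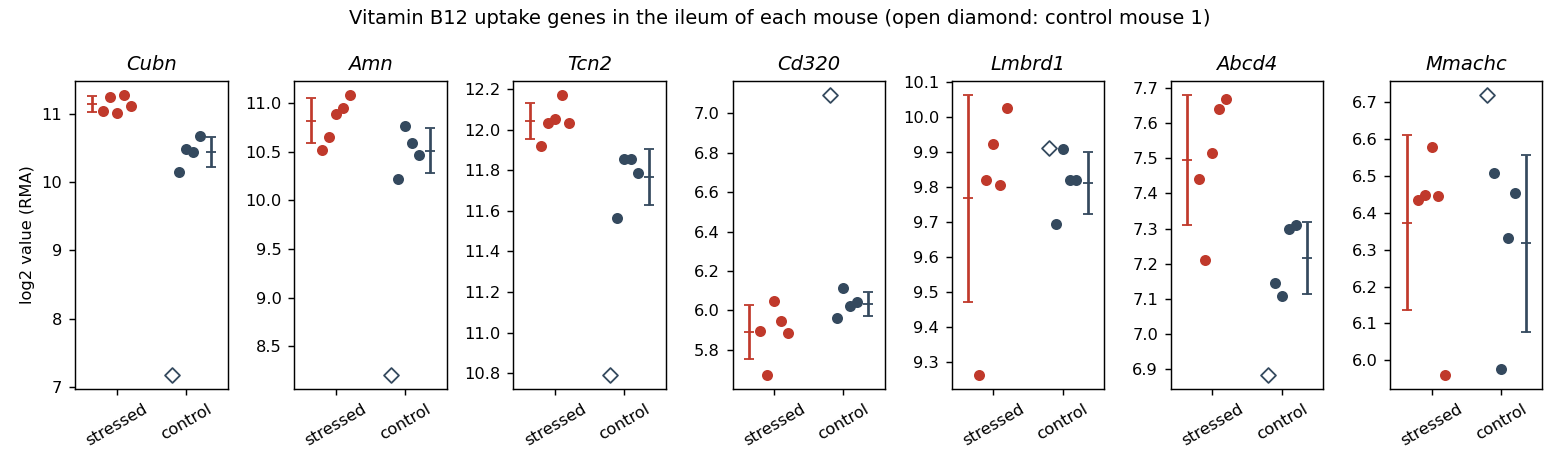
Log2 values of the 7 genes, 1 panel per gene with its own vertical scale. Each point is 1 mouse, red for stressed and dark for control, and the open diamond is control mouse 1. Bars give the mean ± SD of the 5 stressed mice and of control mice 2 to 5. Cubn and Tcn2 do not overlap between the groups, and control mouse 1 is the lowest array for Cubn, Amn, Tcn2 and Abcd4 and the highest for Cd320 and Mmachc.

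Cubn came into view through its limma adjusted p with 9 arrays, 0.0245 among 13666 genes. In that fit 0.798% of the genes tested were called at an adjusted p under 0.05, 0.263% as higher in stressed mice, and Cubn was the 1 member among them. With 10 arrays 0.00% of the genes were called, 0 of the 7 members with them, and the limma adjusted p of Cubn was 0.6002. At an unadjusted p under 0.05, Cubn, Tcn2 and Abcd4 were higher with 10 arrays, and Amn as well with 9, and no member was lower. Of all genes tested, 7.82% had such a p with 10 arrays (3.86% higher and 3.96% lower) and 18.0% with 9 (11.4% higher and 6.56% lower). The groups did not overlap for Cubn and Tcn2, both higher. Over all genes this held for 2.28% with 10 arrays (1.16% higher and 1.12% lower) and for 7.24% with 9 (4.51% higher and 2.72% lower). Of the 7 members, 4 had a higher mean in stressed mice with 10 arrays, where 50.9% of all genes did, and 5 with 9 arrays, where 56.2% did. The median difference of the 7 was 0.35 with 10 arrays and 0.28 with 9 on the log2 scale, against 0.0031 and 0.0251 over all genes tested, a description that includes Cubn. The limma adjusted p of Cubn with 9 arrays became 0.0611 when control mouse 3 was also left out, 0.0694 without stressed mouse 4 and 0.0592 without stressed mouse 5, with the difference between 0.66 and 0.71.

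The other Cubn probe set gave a smaller difference. It was at 9.64, 10.10, 9.83, 10.09 and 9.90 in stressed mice 1 to 5, against 6.04, 9.11, 9.65, 9.23 and 9.45 in control mice 1 to 5. Here stressed mouse 1 lay just below control mouse 3, so the groups overlapped, and the other 4 stressed mice were above every control. The difference with 9 arrays was 0.55 on the log2 scale, and the limma adjusted p with this probe set in place of the other was 0.0639. The suffix of the main probe set (1452270_s_at) marks probes that the manufacturer found in more than 1 transcript, while the other (1426990_at) has no such mark. Over 9 arrays the 2 probe sets followed each other at a Pearson r of 0.923, as a description of 1 transcript measured by both.

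**Figure D2:**
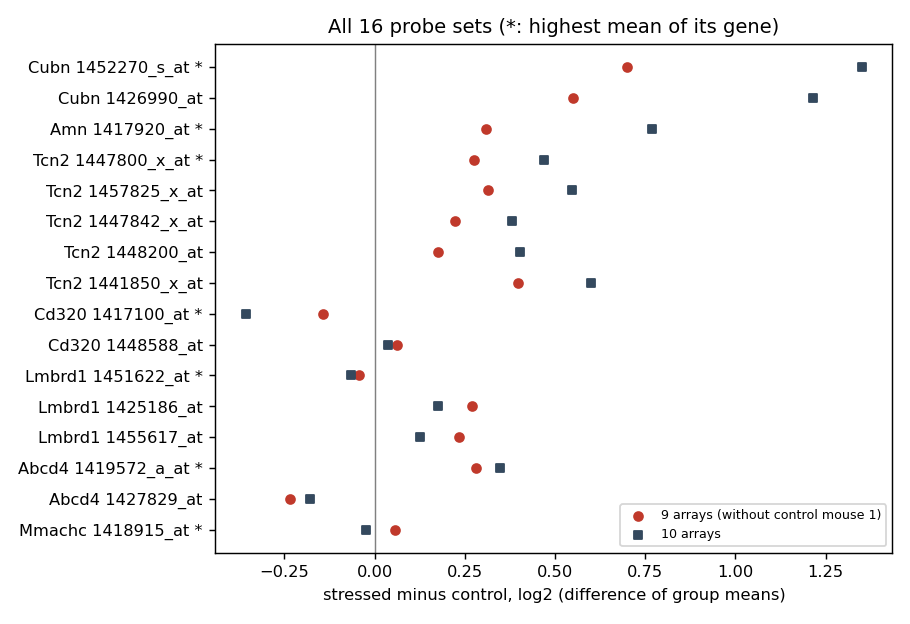
Difference between the group means (stressed minus control, log2) for all 16 probe sets of the 7 genes, with the 9 arrays without control mouse 1 as red circles and with 10 arrays as dark squares. An asterisk marks the probe set with the highest mean of its gene. Both Cubn and all 5 Tcn2 probe sets lie above 0 in both comparisons, while the probe sets of Cd320, Lmbrd1 and Abcd4 lie on both sides of 0.

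Some markers of cell types moved with the groups. Of the 3 T cell genes listed, Cd3e and Cd3g are subunits of the T cell receptor complex. Both were lower in every stressed mouse than in control mice 2 to 5, as 2.72% of all genes were. Their limma adjusted p was 0.0636 and 0.0577 with 9 arrays, and 0.497 and 0.408 with 10. With 10 arrays Cd3e overlapped, with control mouse 1 at 5.65, and Cd3g did not. The third T cell gene, the coreceptor Cd8a, was at 5.20 to 5.75 in stressed mice and at 5.35 to 5.77 in control mice 2 to 5, which overlapped. The mean log2 level of the 3 was 5.44 to 5.53 in stressed mice, 5.66 to 6.09 in control mice 2 to 5 and 5.54 in control mouse 1. The mean of 6 absorptive enterocyte genes was 11.31 to 11.73 in stressed mice and 11.22 to 11.57 in control mice 2 to 5, which overlapped, and 9.01 in control mouse 1. The mean of 6 ileal enterocyte genes was 10.22 to 10.60 in stressed mice, 9.94 to 10.28 in control mice 2 to 5, which also overlapped, and 7.71 in control mouse 1. Its members did not move alike. Fgf15, the ileal hormone that restrains bile acid synthesis, was at 8.37 to 9.42 in stressed mice, at 6.31 to 8.03 in control mice 2 to 5 and at 3.70 in control mouse 1. It was 3.32-fold higher with 9 arrays (limma adjusted p = 0.0347), and its limma adjusted p with 10 arrays was 0.373. Fabp6 did not overlap either but was not called (limma adjusted p = 0.357 with 9 arrays). With 9 arrays the differences of Slc51a and Osr2 were 0.23 and 0.14, and those of Slc51b and Slc10a2 were -0.18 and -0.10. Of the 6 ileal genes, 4 were higher and 2 lower with 9 arrays, where 56.2% of all genes were higher. With 10 arrays all 6 were higher, where 50.9% of all genes were. Among 6 proximal small intestine genes, the iron exporter Slc40a1 was at 8.95 to 9.85 in stressed mice, at 9.90 to 10.18 in control mice 2 to 5 and at 10.98 in control mouse 1. Its difference was -0.89 with 9 arrays (limma adjusted p = 0.0365) and -1.07 with 10 (limma adjusted p = 0.301). Of the 6, 3 were higher and 3 lower with 9 arrays. Lct, Fabp1 and Adh1 differed by 1.06, 0.44 and 0.32 (limma adjusted p = 0.0918, 0.674 and 0.185), and Gata4 and Cyp2b10 by -0.21 and -0.33. The mean of the 6 was 6.47 to 7.26 in stressed mice and 6.52 to 6.88 in control mice 2 to 5, which overlapped, and 6.85 in control mouse 1. Means of the other listed cell types overlapped between stressed mice and control mice 2 to 5. Smooth muscle (3 genes) was at 9.95 to 10.94 and 10.27 to 10.73, and at 11.74 in control mouse 1, its highest array. In the same order, fibroblasts (3 genes) were at 8.80 to 9.71, 8.92 to 9.33 and 9.51. Endothelium (2 genes) was at 6.00 to 6.30, 5.87 to 6.11 and 6.35. B cells (2 genes) were at 3.85 to 4.41, 4.13 to 5.87 and 4.10. For Actb and Gapdh, the log2 excess of 3' over 5' signal, a measure of RNA integrity, was 0.51 to 1.13 in stressed mice, 0.45 to 0.63 in control mice 2 to 5 and 0.59 in control mouse 1. The part of these values in the differences of the vitamin B12 genes was not tested, beyond the values without stressed mouse 4 and without control mouse 1.

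Amn, the membrane anchor that carries cubilin to the cell surface, differed in the same direction by a smaller amount. Its log2 values were 10.52, 10.65, 10.89, 10.95 and 11.08 in stressed mice 1 to 5, against 8.21, 10.22, 10.76, 10.59 and 10.46 in control mice 1 to 5. The groups overlapped: stressed mice 3, 4 and 5 were above every control, and stressed mice 1 and 2 were within the range of control mice 2 to 5. With 9 arrays the difference was 0.31 ± 0.13 (SE), a 1.24-fold higher mean, with a 95% interval of 0.01 to 0.60 (limma adjusted p = 0.256). With 10 arrays it was 0.77 ± 0.41 (SE), with a limma adjusted p of 0.709. Neither passed the threshold of 0.05.

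Tcn2, the transcobalamin that carries the vitamin away from the enterocyte in blood, was higher in all 5 stressed mice than in any control mouse. Its log2 values were 11.92, 12.03, 12.05, 12.17 and 12.03 in stressed mice 1 to 5, against 10.79, 11.57, 11.86, 11.86 and 11.79 in control mice 1 to 5. The gap between the groups was small, with the lowest stressed mouse close above control mice 3 and 4. The difference was 0.28 ± 0.08 (SE) with 9 arrays, a 1.21-fold higher mean, with a 95% interval of 0.09 to 0.46 and a limma adjusted p of 0.130. With 10 arrays it was 0.47 ± 0.18 (SE), with a limma adjusted p of 0.572. Neither passed the threshold of 0.05.

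Tcn2 had 5 probe sets, and the groups did not overlap in 3 of them. The differences of the 5 probe sets with 9 arrays ran from 0.18 to 0.40 on the log2 scale. The largest was that of 1441850_x_at, for which the limma adjusted p was 0.0493 when it stood for the gene, and 0.444 with 10 arrays. With 9 arrays the limma adjusted p was 0.132 for 1457825_x_at, 0.198 for 1447842_x_at and 0.402 for 1448200_at. The smallest difference was that of 1448200_at. Its values were 9.83, 10.15, 10.25, 10.35 and 10.04 in stressed mice 1 to 5, against 8.82, 9.86, 10.06, 10.00 and 9.88 in control mice 1 to 5. In this probe set stressed mouse 1 was below control mice 2 to 5, stressed mouse 5 was within their range, and the 3 others were above every control. The 3 probe sets without overlap all carry the suffix _x_at, which marks probes that may take up related sequences. So does 1447842_x_at, in which stressed mouse 1 was within the control range and the groups overlapped.

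Cd320, the receptor through which cells take up transcobalamin-bound vitamin, was lower in 4 of 5 stressed mice than in any control mouse, and control mouse 1 stood apart upwards. Its log2 values were 5.89, 5.67, 6.05, 5.95 and 5.89 in stressed mice 1 to 5, against 7.09, 5.96, 6.11, 6.02 and 6.04 in control mice 1 to 5. Stressed mouse 3 lay within the range of the controls and the other 4 were below every control, while control mouse 1 was the highest array. The difference was -0.14 ± 0.08 (SE) with 9 arrays, with a 95% interval of -0.33 to 0.04 and a limma adjusted p of 0.385. With 10 arrays it was -0.36 ± 0.20 (SE), with a limma adjusted p of 0.727. The other Cd320 probe set lay below the filter at 2.82 to 3.35 on all arrays and gave 0.06 with 9 arrays.

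**Figure D3:**
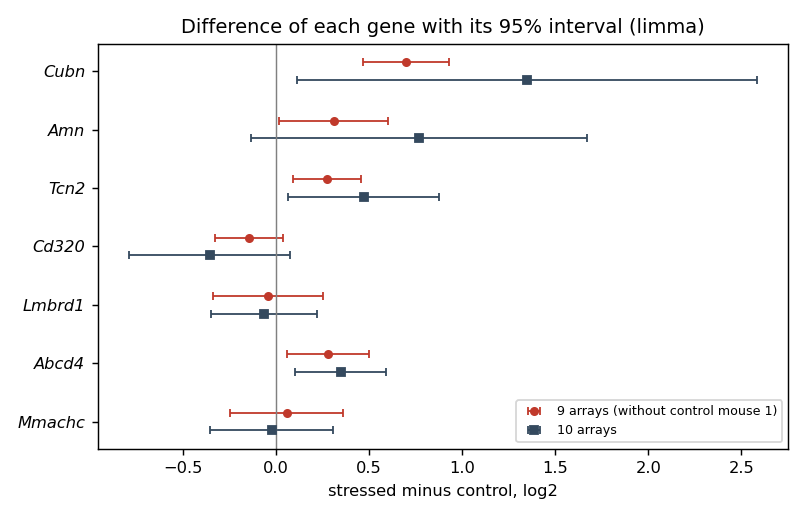
Difference of each of the 7 genes (stressed minus control, log2) with its 95% interval from limma, with the 9 arrays without control mouse 1 in red and with 10 arrays in dark. The intervals of Tcn2 and Abcd4 lie above 0 in both comparisons and that of Amn with 9 arrays, while those of Cd320, Lmbrd1 and Mmachc include 0. Nothing is read from the interval of Cubn, which was chosen by this difference. With 10 arrays the intervals of Cubn and Amn are the widest, from 0.12 to 2.58 and from -0.13 to 1.67.

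For the lysosomal exporters the direction depended on the probe set. In the probe sets used, the mean of Abcd4 was higher in stressed mice and that of Lmbrd1 slightly lower, and the other probe sets of both genes went the opposite way. The difference between the 2 genes was not tested. Abcd4, the ATP-driven transporter of the lysosomal membrane, was at 7.44, 7.21, 7.52, 7.64 and 7.67 in stressed mice 1 to 5, against 6.88, 7.15, 7.11, 7.30 and 7.31 in control mice 1 to 5. Stressed mouse 2 lay within the control range and the other 4 were above every control. The difference was 0.28 ± 0.10 (SE) with 9 arrays, a 1.21-fold higher mean, with a limma adjusted p of 0.184. With 10 arrays it was 0.35 ± 0.11 (SE), with a limma adjusted p of 0.452. A second Abcd4 probe set, near the filter at 4.33 to 4.93, gave -0.23 with 9 arrays and -0.18 with 10, the other direction.

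Lmbrd1, the membrane protein that works with Abcd4 in the lysosome, was at 9.26, 9.82, 9.92, 9.80 and 10.03 in stressed mice 1 to 5, against 9.91, 9.69, 9.91, 9.82 and 9.82 in control mice 1 to 5. The groups overlapped, with stressed mouse 1 the lowest array and stressed mouse 5 the highest. The difference was -0.04 ± 0.13 (SE) with 9 arrays, with a 95% interval of -0.34 to 0.25 and a limma adjusted p of 0.888. With 10 arrays it was -0.06 ± 0.13 (SE), with a limma adjusted p of 0.931. The 2 other Lmbrd1 probe sets, at lower levels, gave 0.27 and 0.23 with 9 arrays, with 4 stressed mice above control mice 2 to 5 in each and control mouse 1 the highest array in both. Their limma adjusted p-values were 0.2046 and 0.1997.

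Mmachc, the cytosolic chaperone that processes incoming cobalamin, had 1 probe set. It was at 6.43, 6.45, 6.58, 6.45 and 5.96 in stressed mice 1 to 5, against 6.72, 6.51, 5.98, 6.33 and 6.45 in control mice 1 to 5. The groups overlapped, with stressed mouse 5 and control mouse 3 low and the other mice close together. The difference was 0.06 ± 0.14 (SE) with 9 arrays, with a 95% interval of -0.25 to 0.36 and a limma adjusted p of 0.857. With 10 arrays it was -0.02 ± 0.15 (SE), with a limma adjusted p of 0.978.

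How the other 6 genes varied with Cubn over mice was measured by Pearson r and Spearman rho of the log2 values, with permutation p-values adjusted over 6 relations. Tcn2 was the member most like Cubn, with r = 0.980 over 10 arrays (permutation p = 0.00012, adjusted p = 0.00072) and r = 0.909 over 9 (exact permutation p = 0.00116, adjusted p = 0.00694). Its rho was 0.879 over 10 arrays (permutation p = 0.00178, adjusted p = 0.0107) and 0.833 over 9 (exact permutation p = 0.00827, adjusted p = 0.0496). Without control mice 1 and 2, the arrays farthest from the median of Cubn, r was 0.844. Since the groups did not overlap for Cubn, the values of all 6 relations include the difference between the groups, by which Cubn was chosen. Their p-values do not bear on likeness within a group and are given as a description. Within the 5 stressed and the 4 control mice, too few for a test, r to Cubn was 0.640 and 0.749 for Tcn2. It was 0.127 and 0.562 for Amn, -0.124 and 0.558 for Abcd4, -0.546 and 0.651 for Cd320, 0.228 and 0.695 for Lmbrd1, and -0.0368 and -0.247 for Mmachc. For Abcd4 and Cd320 the sign differed between the groups.

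Amn, the partner of Cubn in the receptor, followed it at r = 0.968 over 10 arrays (permutation p = 0.00518, adjusted p = 0.0104) and at rho = 0.733 (permutation p = 0.0202, adjusted p = 0.0358). Over 9 arrays r was 0.668 (exact permutation p = 0.0533, adjusted p = 0.107) and rho was 0.633 (exact permutation p = 0.0760, adjusted p = 0.129). Without control mice 1 and 2, r was 0.438, so the relation over 10 arrays rests on those mice. Among the other genes tested, Amn ranked 27th by r to Cubn over 10 arrays and 1012th over 9, and Tcn2 ranked 10th and 25th.

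**Figure D4:**
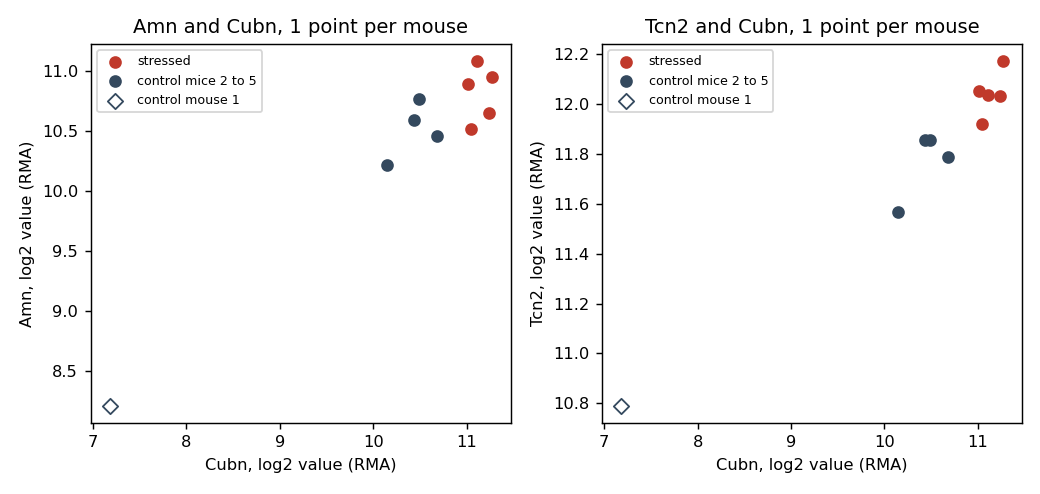
Log2 values of Amn (left) and Tcn2 (right) against those of Cubn, 1 point per mouse, red for stressed, dark for control mice 2 to 5 and an open diamond for control mouse 1. Control mouse 1 is far below and to the left of the others in both panels. Among the other 9 mice Tcn2 follows Cubn at r = 0.909 and Amn at r = 0.668.

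Of the other relations with Cubn, r of Abcd4 and Cd320 was closer to 0 over 9 arrays than over 10, and r of Lmbrd1 and Mmachc changed sign. For Abcd4 r was 0.759 over 10 arrays (permutation p = 0.00366, adjusted p = 0.0104) and 0.696 over 9 (exact permutation p = 0.0399, adjusted p = 0.107). Its rho was 0.733 over 10 arrays (permutation p = 0.0201, adjusted p = 0.0358) and 0.633 over 9 (exact permutation p = 0.0760, adjusted p = 0.129), and r was 0.620 without control mice 1 and 2. For Cd320 r was -0.956 over 10 arrays (permutation p = 0.0087, adjusted p = 0.0130) and -0.557 over 9 (exact permutation p = 0.0879, adjusted p = 0.132). Its rho was -0.721 (permutation p = 0.0238, adjusted p = 0.0358) and -0.617 (exact permutation p = 0.0857, adjusted p = 0.129), and r was -0.707 without control mice 1 and 2. For Lmbrd1 r was -0.180 over 10 arrays and 0.0055 over 9 (adjusted permutation p = 0.570 and exact 0.903), and its rho was -0.103 and 0.0333 (adjusted permutation p = 0.783 and exact 0.948). For Mmachc r was -0.443 and 0.0611 (adjusted permutation p = 0.142 and exact 0.903), and its rho was -0.370 and -0.133 (adjusted permutation p = 0.351 and exact 0.892).

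The genes whose values were most like those of Cubn over all 10 arrays were Apob, the structural protein of chylomicrons (r = 0.991), Cdk11b, a cyclin-dependent kinase (r = 0.990), Serpina1b, an antitrypsin gene (r = 0.988), Xpnpep2, a membrane-bound aminopeptidase (r = 0.985), and Comtd1 (r = 0.984). Apob was at 12.01 to 12.35 in stressed mice, at 11.70 to 11.92 in control mice 2 to 5 and at 9.52 in control mouse 1. Serpina1b was at 9.70 to 10.26 in stressed mice, at 8.56 to 9.48 in control mice 2 to 5 and at 3.42 in control mouse 1. All 5 genes were lowest in control mouse 1, as Cubn was, and 295 genes had r of 0.9 or more.

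Over the 9 arrays the 5 genes most like Cubn were different ones. They were Igsf3 (r = 0.967, rho = 0.917), the Wnt signal transducer Dvl1 (r = 0.943, rho = 0.933), Btbd1 (r = 0.941, rho = 0.883), the homeodomain factor Pbx2 (r = 0.940, rho = 0.783) and Spin1 (r = 0.933, rho = 0.883). Igsf3 was at 7.90 to 8.09 in stressed mice, against 7.42 to 7.63 in control mice 2 to 5 and 7.39 in control mouse 1. Spin1 was at 11.02 to 11.30 in stressed mice, at 10.60 to 10.89 in control mice 2 to 5 and at 11.52 in control mouse 1, where it was the highest array. At r of 0.9 or more there were 31 genes over 9 arrays. These correlations are descriptions over mice that share their group difference.

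The route beyond the 7 genes was covered by a list of 20 genes, of which 18 had a probe set with 1 symbol and 17 passed the filter on low values. None was called over all genes in limma, with 10 arrays or with 9. At an unadjusted p under 0.05 there were 0 of 17 with 10 arrays, and 3 of 17 with 9, all higher, against 11.4% of all genes that were higher at that level. The median difference was -0.03 with 10 arrays and 0.05 with 9 on the log2 scale, against 0.0031 and 0.0251 over all genes tested. With 10 arrays 8 of the 17 were higher in stressed mice and 9 lower, where 50.9% of all genes were higher. With 9 arrays 12 were higher and 5 lower, where 56.2% of all genes were higher.

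Lrpap1, the chaperone of the LDL receptor family, was at 8.82 to 9.10 in stressed mice, against 8.61 to 8.74 in control mice 2 to 5 and 9.49 in control mouse 1. It differed by 0.27 ± 0.08 (SE) with 9 arrays (limma adjusted p = 0.141), where the groups did not overlap, and by 0.10 ± 0.16 (SE) with 10 (limma adjusted p = 0.903). Abcc1, an exporter through which free cobalamin leaves cells, differed by 0.29 ± 0.13 (SE) with 9 arrays (limma adjusted p = 0.272) and 0.05 ± 0.24 (SE) with 10. The endocytic receptor Lrp1 differed by 0.28 ± 0.18 (SE) and 0.21 ± 0.18 (SE). Dab2, an endocytic adaptor of megalin, differed by 0.18 ± 0.15 (SE) and 0.03 ± 0.19 (SE). Megalin itself (Lrp2), which works beside cubilin in kidney, was below the filter in all 3 of its probe sets. The highest of them was at 3.15 to 3.29 in stressed mice and 3.39 to 3.79 in control mice, a range in which values are near background, and it was not tested.

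The enzymes that use the vitamin, Mmut and Mtr, were not called in either limma fit, nor was Pccb. Mmut, the mitochondrial methylmalonyl-CoA mutase, differed by 0.15 ± 0.07 (SE) with 9 arrays (limma adjusted p = 0.268) and by 0.08 ± 0.09 (SE) with 10 (limma adjusted p = 0.868). Mtr, the cytosolic methionine synthase, was at 4.69 to 4.98 in stressed mice and 4.73 to 5.27 in control mice. It differed by -0.20 ± 0.11 (SE) with 9 arrays (limma adjusted p = 0.381) and by -0.18 ± 0.11 (SE) with 10 (limma adjusted p = 0.754). Pccb, a subunit of propionyl-CoA carboxylase upstream of Mmut, differed by -0.12 ± 0.08 (SE) with 9 arrays and -0.15 ± 0.08 (SE) with 10.

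**Figure D5:**
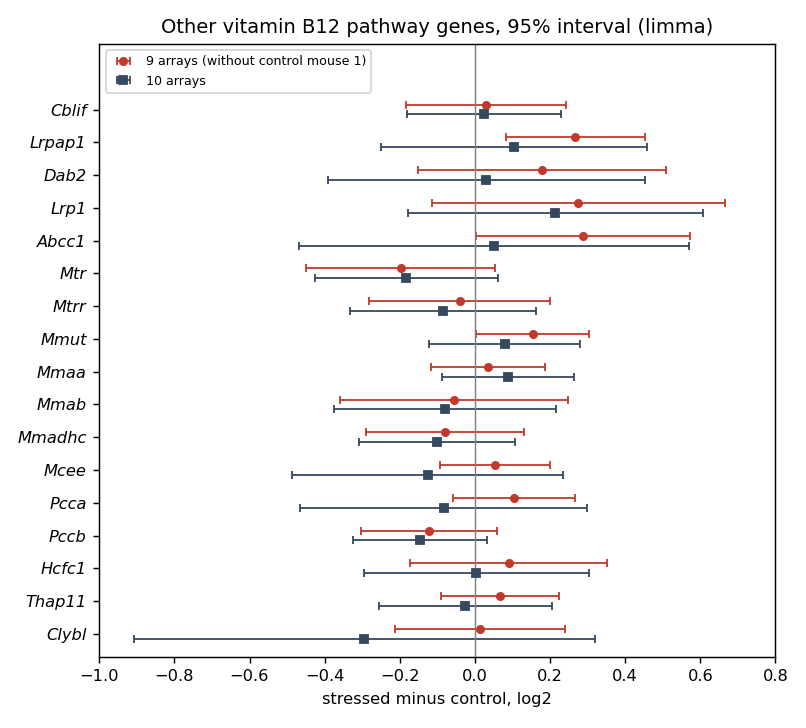
Difference (stressed minus control, log2) with its 95% interval from limma for the 17 other genes of the vitamin B12 route that passed the filter, with 9 arrays in red and with 10 arrays in dark. With 9 arrays the intervals of Lrpap1, Abcc1 and Mmut lie above 0, and with 10 arrays all 17 include 0.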

How the data were processed

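Total RNA of the terminal ileum (100 ng per mouse) was amplified from the 3' end and biotinylated with an IVT kit, as the labels' protocols state. The authors deposited log2 values made with RMA, per the submitters' processing notes; its version is not given in the sources used here. The table held 45101 probe sets between 1.22 and 14.4, with array medians of 4.78 to 4.82. Arrays carry no read depth, so their number limits the precision. Of the probe sets, 34945 had 1 gene symbol in the platform annotation, 932 several and 9160 none, and 64 were controls. The lowest 40 percent by mean (under 4.15) were left out, and each gene was taken from its highest probe set, which left 13666 genes. Groups came from the titles.

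Stressed and control mice were compared with limma 3.58.1 in R 4.3.3, with Benjamini-Hochberg adjustment over all genes and a threshold of 0.05, after a test on simulated data. A difference is stressed minus control. Permutation tests (Python 3.11.15) were two-sided, with 100000 resamples for 10 arrays and exact for 9. The 7 genes, the other lists and the motifs were chosen with earlier results of these data known, the motifs after the files were seen. From the pathway list, up to 6 genes were named by smallest p in either fit, plus Lrp2, Dab2, Mtr and Mmut; from all genes, the 5 most like Cubn in each set of arrays, passing over predicted and clone-named transcripts; markers of the arrays that stood apart were named after their values were seen. Alternatives are listed in the closing section.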

Additional observations from a re-analysis of the deposited data

Results flagged for a closer look

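In each group of 5 mice, the array farthest from its neighbour was compared with Dixon's 95% critical value, which chance exceeds in about 1 in 20 groups. Of 32 groups (16 probe sets in stressed and in control mice), 10 had an array apart, and in 8 it was control mouse 1. These groups come from the same 10 mice, and several probe sets measure the same gene. They are not independent, so their number is a description and is not measured against that rate. For Cubn, control mouse 1 was at 7.18 where the next lowest control was at 10.15, and at 6.04 against 9.11 in the other Cubn probe set. For Amn it was at 8.21, against 10.22 in the next lowest control. For Tcn2 it was at 10.79, 9.42, 8.82 and 7.45 in 4 of the 5 probe sets, against 11.57, 10.39, 9.86 and 8.37 in the next lowest control. For Cd320 it was the highest control at 7.09, against 6.11 in the next. Stressed mouse 5 was apart for Mmachc, at 5.96 where the next lowest stressed mouse was at 6.43. Stressed mouse 3 was apart for the Cd320 probe set below the filter, at 2.90 against 3.22.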

How the results depend on the processing

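The alternatives left out each mouse, changed the filter (none, or the lowest 60 percent), the probe set, the scaling, the array weights or the variance prior, or added the replicate number as a block. The number of genes called with 10 arrays was 0, 41 with array weights, and 0 to 109 when 1 mouse was left out (109 without control mouse 1, 2 without stressed mouse 2). With 9 arrays it was 109, 45 probe sets when every probe set was tested on its own, 169 with an intensity trend and robust prior, and 6 to 154 when 1 more mouse was left out: 6, 14, 21 and 32 without stressed mice 4, 5, 3 and 1, and 16, 19 and 58 without control mice 3, 2 and 4. The Cubn difference ran from 0.55 to 0.78 over 17 alternatives with 9 arrays, with limma adjusted p from 0.0160 to 0.0694. With 10 arrays it ran from 0.70 to 1.57 over 18 alternatives, with limma adjusted p from 0.0245 to 0.969. The 0.70 and the 0.0245 come from leaving out control mouse 1, which is the fit with 9 arrays again. All of these alternatives are refits of the values by which Cubn was chosen and give it no support. Amn and Tcn2 kept their direction under every alternative run. The replicate numbers were not treated as a pairing in the main fits. The deviations of same-numbered mice correlated at -0.30 to 0.28, and stressed mice 1 and 2 were most like the control of their own number. Such few values cannot decide whether the numbers mark a pairing. With the replicate block 0 genes were called with 10 arrays and 95 with replicates 2 to 5, where Cubn differed by 0.72 (limma adjusted p = 0.05, just under the threshold). The directions that turned belonged to genes not called. With 10 arrays, Mmachc ran from -0.13 to 0.079 and Lmbrd1 from -0.13 to 0.062 when 1 mouse was left out, and array weights gave 0.022 and 0.038. With 9 arrays, leaving out 1 more mouse gave -0.058 to 0.16 for Mmachc and -0.11 to 0.082 for Lmbrd1, array weights gave 0.041 for Lmbrd1, and the block 0.082. Other probe sets turned Lmbrd1 (0.18 and 0.13 with 10 arrays, 0.27 and 0.23 with 9), Cd320 (0.038 and 0.062) and Abcd4 (-0.18 and -0.23). Without control mouse 1, the adjusted permutation p of the likeness to Cubn rose above 0.05 for Amn (r = 0.668), Cd320 (r = -0.557) and Abcd4 (r = 0.696). These p-values include the group difference by which Cubn was chosen, and no call is read from them. The likeness changed sign for Lmbrd1 (r = 0.0055) and Mmachc (r = 0.0611). Without control mice 1 and 2 it was 0.438 for Amn, -0.707 for Cd320 and 0.310 for Mmachc. The cause of these changes was not tested.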
